A study of Mus musculus with 4 samples.

Results

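The wild-type libraries of this mouse study hold the transcriptome of microglia isolated from the corpus callosum at P7, and they are described here alone, without the knockout libraries. They are the 2 libraries with the genotype label wt, out of 4 libraries in the series, and the genes described are the 14823 protein-coding rows of the 21044 rows in the deposited expression table. The design text names these animals as Lag3fl/fl, so both alleles of Lag3 carry recombination sites for Cre. Whether they carry a Cre, what sex they are, and how many animals went into each library are not given in the sources used here. The differences below therefore show only the spread between these 2 libraries, WT replicate 1 and WT replicate 2, and with 1 group of 2 libraries there is no test. Total read counts were 15855717 in replicate 1 and 14972795 in replicate 2. Levels are given as FPKM, the reads of a gene divided by a length and by the size of the library. The order of genes therefore depends on the length the authors used. For Apoe, reads and FPKM imply 2138 bases, whereas its longest annotated protein-coding transcript has 1408. Ctsb had more reads than Apoe in both libraries (430671 and 410566 against 328345 and 299837) but a lower FPKM.

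Microglia are the resident macrophages of the brain. In the first postnatal week the corpus callosum, a tract of growing and myelinating axons, holds amoeboid microglia that engulf cells and debris and are known for high Spp1, Gpnmb, Igf1 and Itgax. Adult surveilling microglia are better known for P2ry12, Tmem119 and Cx3cr1, the receptor for the neuronal chemokine fractalkine. Lag3, an immune checkpoint receptor first known from T cells, is also found in microglia.

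The 5 marker genes of microglia were all among the 200 highest genes by mean FPKM. In replicate 1 alone Lag3 ranked 211 and Tmem119 ranked 246, and in replicate 2 they ranked 116 and 162. Spp1, which encodes the secreted matrix protein osteopontin, stood at 25031 FPKM in replicate 1 and 20736 FPKM in replicate 2, the highest level in each library. Cx3cr1 stood at 1414 and 1423 FPKM, a difference of -0.01 on the log2 scale. P2ry12, the purinergic receptor that steers microglial processes toward ATP, stood at 642 and 1066 FPKM. Tmem119, a membrane protein used to tell microglia from other macrophages, stood at 163 and 229 FPKM. Lag3 stood at 181 and 317 FPKM, from 6064 and 10007 reads, and ranked 143 by its mean. Replicate 2 thus held the higher level of P2ry12, Tmem119 and Lag3, replicate 1 that of Spp1, and Cx3cr1 was nearly level. On GRCm38, the markers lie at chr5:104435118-104441050 (Spp1, plus strand), chr9:119901616-120069879 (Cx3cr1, minus strand), chr3:59216272-59262871 (P2ry12, minus strand), chr5:113793729-113800516 (Tmem119, minus strand) and chr6:124904361-124911705 (Lag3, minus strand). These spans cover the whole gene, exons and introns together.

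Of the 14823 genes, 9347 reached a mean of 1 FPKM, the level used here to call a gene detected, and their median was 7.07 FPKM. Both libraries reached that level for 8766 genes, 1034 genes did so in 1 library only, and 1082 genes were listed at 0 in both. The upper end was narrow: 441 genes reached a mean of 100 FPKM, 32 reached 1000 FPKM, and 170 genes made up 50% of the summed FPKM. Spp1 alone held 7.84% of the summed FPKM in replicate 1 and 6.57% in replicate 2. In reads, which are not divided by length, Spp1 took 4.13% (95% exact binomial interval 4.12 to 4.14%) and 3.42% (3.41 to 3.43%). Reads are not independent molecules, so these intervals cover counting error only, and the gap between the libraries was far wider than either. The 10 highest genes held a mean of 19.4% of the summed FPKM, and the 100 highest held 44.6% and 43.7%.

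After Spp1 came Apoe, the lipid carrier of the brain, at 9685 and 9365 FPKM, so that Spp1 exceeded Apoe by 2.58 times in replicate 1 and 2.21 times in replicate 2. C1qa, a chain of the complement recognition protein C1q, followed at 5411 and 4981 FPKM. Its partner chains C1qb, at 2768 and 3423 FPKM, and C1qc, at 1151 and 1462 FPKM, were also among the 30 highest. The chains were thus ordered C1qa, C1qb, C1qc in both libraries, with C1qa higher in replicate 1 and the other chains higher in replicate 2. The lysosomal protease Ctsb, cathepsin B, stood at 4488 and 4531 FPKM, and Lgmn, the asparagine endopeptidase legumain, at 3148 and 3115 FPKM. The iron store was represented by Fth1 (3934 and 3700 FPKM) and Ftl1 (2728 and 2693 FPKM), the ferritin chains. Copies of at least 95% identity elsewhere cover 95.6% of the Ftl1 transcript, which makes its level uncertain. Selenop, a selenium carrier, stood at 3309 and 3418 FPKM. Fcrls, a scavenger-like gene that marks microglia, stood at 2111 and 2421 FPKM. All 30 genes with the highest mean were among the 30 highest of each library, and 95 of the 100 highest were shared, whereas the 10 highest shared 7. Within the 30, the widest difference was that of B2m, the light chain of class I antigen-presenting molecules, at 3018 and 2176 FPKM, a log2 difference of 0.47.

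**Figure D1:**
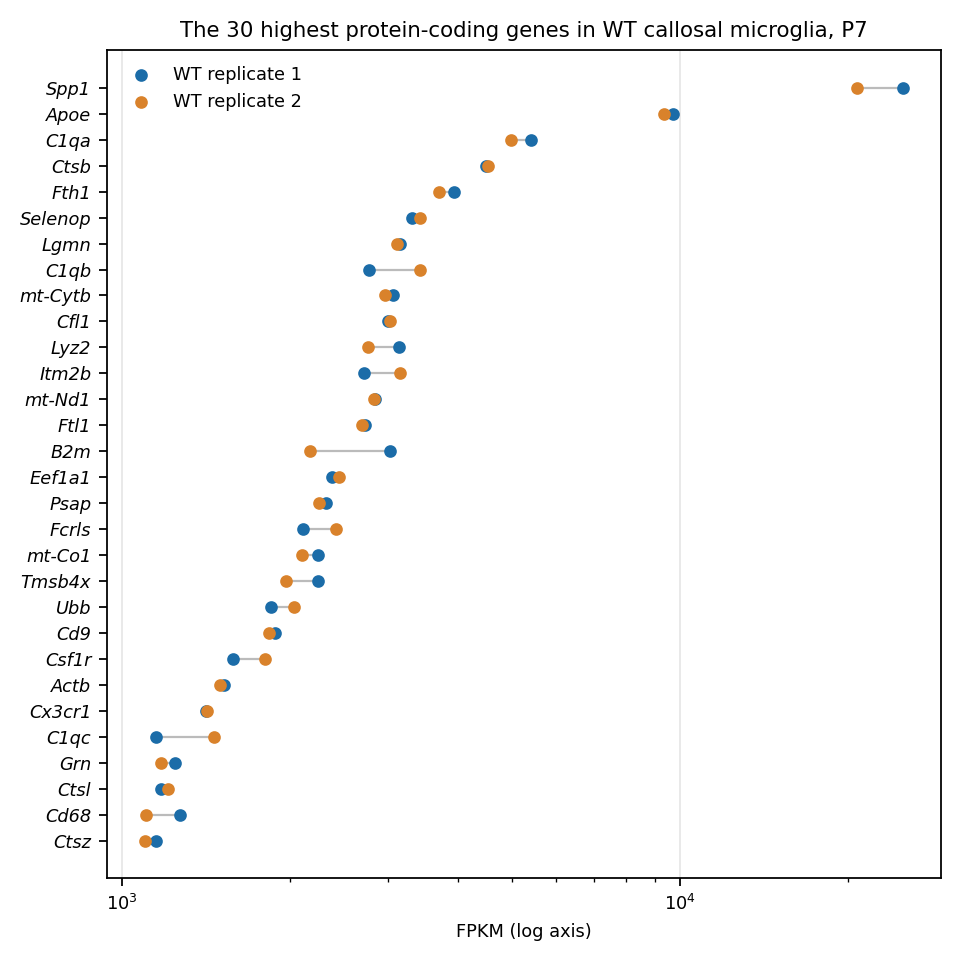
Each row is a gene and each point its FPKM in 1 library on a log axis, blue for WT replicate 1 and orange for WT replicate 2. Spp1 stands apart at 25031 and 20736 FPKM, the next gene, Apoe, is at 9685 and 9365 FPKM, and the points of most genes nearly coincide.

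RefSeq gives Spp1 a pair of promoters, and the one upstream is shown because this gene leads the profile and because the 250 bases before that start hold a match to each of the motifs that were searched. The other, at chr5:104435942-104436191, holds no match to either. The motifs were GAGGAAGT, a core of the kind bound by the myeloid ETS factor PU.1, and the repeat of interferon response elements, GAAA and again GAAA with any 2 bases between them, each on both strands. Capitals mark the matches, and sequences run 5′ to 3′ along the strand of the gene. Spp1 is on the plus strand, at chr5:104434861-104435110 of GRCm38.p6. The first match, the repeat read on the opposite strand, begins 157 bases before the start and the second, the ETS core, 113 bases before it.
Spp1: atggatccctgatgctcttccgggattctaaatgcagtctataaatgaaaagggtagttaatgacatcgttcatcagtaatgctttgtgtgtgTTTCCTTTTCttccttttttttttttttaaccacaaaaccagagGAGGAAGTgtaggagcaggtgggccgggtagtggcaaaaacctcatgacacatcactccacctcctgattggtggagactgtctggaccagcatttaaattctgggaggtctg
GAGGAAGT was present in 2.44% of the 32851 promoters of the table, in 2.76% of the 9463 of detected genes, in 2 of the 32 promoters matched to the homeostatic list below (6.25%), in 1 of the 36 of the axon-tract list (2.78%), in 1 of the 43 of the interferon list (2.33%) and in 5 of the 100 matched to the highest genes (5%). A match is a stretch of letters and was not tested for binding.

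Genes were then taken by class. The receptor list also holds surface proteins that are not receptors in the strict sense, and 156 of its 197 members with a row reached 1 FPKM. Its first member was Cd9, a tetraspanin that organises membrane partners, at 1880 and 1833 FPKM. Csf1r, the receptor for the survival factors CSF1 and IL-34, stood at 1580 and 1808 FPKM, and Cx3cr1 came next. Among the 15 highest, 8 of the 14 neighbouring pairs were apart, meaning that both libraries of the one gene lay above both of the next. The order Cd9, Csf1r, Cx3cr1, Cd68, Fcgr3, Laptm5, in which Cd68 and Laptm5 encode lysosomal membrane proteins, held in both libraries in this sense. From Laptm5 to Sirpa the levels overlapped, since P2ry12 ran from 642 to 1066 FPKM.

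Receptors for immunoglobulin and their adaptor formed 1 group of this list, and Sirpa, which does not bind immunoglobulin, is given beside them. Fcgr3, a low-affinity IgG receptor, stood at 1029 and 1031 FPKM, with 37.8% of its transcript in copies of at least 95% identity elsewhere. Fcer1g, the signalling chain that it uses, stood at 668 and 575 FPKM. Sirpa, the receptor for the "do not eat" ligand CD47, stood at 699 and 835 FPKM. All 3 levels differed by under 2-fold between the libraries.

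Purinergic receptors formed another group, and Gpr34 and Ifngr1, which are not purinergic, are given beside them. P2ry13 (365 and 472 FPKM) was higher in replicate 2, as P2ry12 was. P2ry6, a UDP receptor linked to phagocytosis, stood at 217 and 239 FPKM. Gpr34, a lysophosphatidylserine receptor, stood at 358 and 424 FPKM, and Ifngr1, a chain of the interferon gamma receptor, at 356 and 504 FPKM. Each of these levels was the higher in replicate 2. Lag3 was the member at place 17, between Cd86 (246 and 271 FPKM) and P2ry6, and its levels overlapped those of both.

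Lag3 was also set beside its known ligands and the proteases that shed it. Lgals3, galectin-3, a described ligand, stood at 157 and 120 FPKM. The sheddases Adam10 (57 and 58.9 FPKM) and Adam17 (28.1 and 23.3 FPKM) were both detected. Cd4, the relative of Lag3, was listed at 0 in replicate 1 and at 0.116 FPKM in replicate 2. Lag3 thus exceeded each of these genes in both libraries, with Lgals3 next.

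Secreted factors held 22.4% of the summed FPKM in replicate 1 and 21.0% in replicate 2, against 5.78% and 6.28% for the receptor list and 1.42% and 1.52% for transcription factors. The secreted list includes lysosomal enzymes that cells also release. Of its 150 members with a row, 102 reached 1 FPKM. Its 15 highest were Spp1, Apoe, C1qa, Ctsb, Lgmn, C1qb, Lyz2, Psap, C1qc, Grn, Ctsl, Ctsz, Hexa, Ccl3 and Ctss, and 9 of the 14 neighbouring pairs were apart. Copies elsewhere cover 96.0% of the Lyz2 transcript, which makes its place uncertain.

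Chemokines were led by Ccl3, which recruits monocytes and macrophages, at 882 and 973 FPKM. Ccl6 (686 and 728 FPKM) and Ccl9 (308 and 320 FPKM) followed, then Ccl2, which also recruits monocytes, at 210 and 207 FPKM and Ccl4 at 79.9 and 83.2 FPKM. The libraries differed by at most 0.14 on the log2 scale in these 5 genes. Growth factors and bridging molecules stood in the same range: Pros1, protein S, at 332 and 412 FPKM, and Gas6, at 318 and 327 FPKM, are both ligands of the TAM receptors. Of those receptors, Mertk was at 41.1 and 42.5 FPKM and Axl at 15.6 and 10.9 FPKM. Csf1 was at 119 and 108 FPKM, and Igf1, the growth factor tied to callosal myelination, at 77.2 and 68.2 FPKM. Inflammatory cytokines were lower: Il1a stood at 44.8 and 45.0 FPKM, Tnf at 11 and 19.8 FPKM, and Il1b at 3.67 and 5.15 FPKM.

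Transcription factors were fewer at the upper end, with 12 of 231 members at 100 FPKM or more and 170 at 1 FPKM or more. Immediate early factors took the first 5 places. Fos stood at 579 and 638 FPKM, Egr1 at 258 and 329 FPKM, Atf3 at 230 and 214 FPKM, Jun at 170 and 246 FPKM, and Junb at 170 and 233 FPKM. These genes respond within minutes to stimulation and are also known to be induced by tissue dissociation. The isolation of the cells is not described in the sources used here, and its part in these levels was not tested. Fos and Egr1 were each apart from the next gene, and below them none of the 12 neighbouring pairs was.

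Lineage factors of myeloid cells followed. Spi1, which encodes PU.1, the factor required for macrophage and microglial development, stood at 80.8 and 162 FPKM, a 2.01-fold higher level in replicate 2. Irf8, its partner, was nearly level at 105 and 102 FPKM. Sall1, the factor that keeps microglial identity, stood at 57.4 and 59.6 FPKM, and Mef2c at 37.3 and 42.9 FPKM. Among these 4 factors Spi1 showed the widest gap and Irf8 the smallest.

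**Figure D2:**
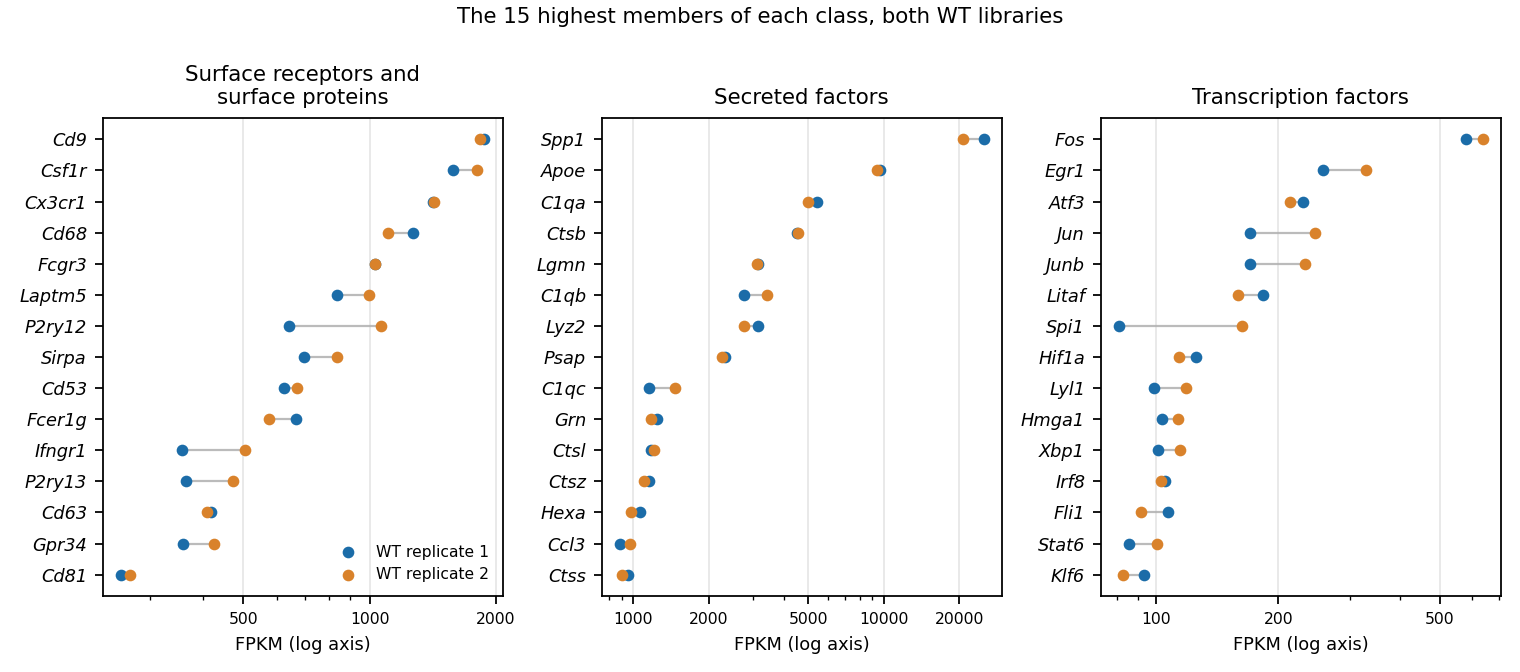
Rows are the 15 highest members of the receptor, secreted factor and transcription factor lists, and points are FPKM in each WT library on a log axis that differs between panels. Secreted factors reach 25031 FPKM, receptors 1880 FPKM and transcription factors 638 FPKM, and the widest separations between the libraries are those of Spi1 (80.8 and 162) and P2ry12 (642 and 1066).

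Lists of genes known for microglial states were then summed. The homeostatic list had 39 of 40 members at 1 FPKM or more and 23 at 100 or more, and its sum was 20665 and 22560 FPKM. The list of axon-tract and proliferative-region microglia, taken from published descriptions of early postnatal white matter, had 39 of 40 at 1 or more and 23 at 100 or more, with a sum of 53467 and 47936 FPKM. Spp1 and Apoe made up most of the latter sum, and the medians of the lists were closer, at 139 and 165 FPKM for the homeostatic list and 122 and 111 FPKM for the axon-tract list. In bulk libraries, fewer cells of a type and less RNA per cell cannot be told apart, and these sums do not show whether the same cells hold both programmes. Members of the axon-tract list beyond its first genes were Gpnmb, a glycoprotein of lysosome-rich macrophages, at 764 and 473 FPKM, Itgax, an integrin chain, at 71.3 and 61.0 FPKM, and Cst7, a cathepsin inhibitor, at 32.8 and 30.8 FPKM. On the homeostatic list, Siglech stood at 132 and 172 FPKM, and Trem2, which both lists hold, at 63.0 and 62.7 FPKM.

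The lysosomal list was detected whole, with 49 of 49 members at 1 FPKM or more and 29 at 100 or more. Its share of the summed FPKM was 7.56% in replicate 1 and 7.57% in replicate 2. Psap, the precursor of the saposins that activate sphingolipid breakdown, stood at 2324 and 2251 FPKM, and Grn, progranulin, at 1247 and 1177 FPKM. Cell cycle genes reached 1 FPKM in 44 of 45 cases, led by Tuba1b (254 and 265 FPKM), a tubulin with 91.1% of its transcript in copies elsewhere, while the replication helicase subunit Mcm3 stood at 90.2 and 85.2 FPKM. Mki67 and Top2a, genes of dividing cells, were at 11.6 and 8.84 FPKM and at 16.1 and 16.3 FPKM. Of the antigen presentation list, 17 of 21 members reached 1 FPKM. The class I genes H2-D1 (163 and 120 FPKM) and H2-K1 (155 and 108 FPKM) were above the class II genes H2-Ab1 (16.2 and 23.7 FPKM) and Cd74 (2.42 and 3.79 FPKM), and H2-Aa was listed at 0 in replicate 1 and at 1.03 FPKM in replicate 2.

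Most markers of other cells were low by the same measure, but some, such as Stab1, Mrc1, Cd79b and Gfap, stood above the median of detected genes. None of 11 neuronal markers reached 1 FPKM, and their sum was 2.70 and 3.26 FPKM. Astrocyte markers summed to 48.6 and 36.3 FPKM over 13 genes, of which Gfap, the astrocyte filament protein, made up 33 and 20.7 FPKM. Oligodendrocyte markers summed to 24.0 and 23.5 FPKM, with Cnp, a myelin enzyme, at 13.2 and 10.6 FPKM and Mbp, myelin basic protein, at 5.58 and 6.27 FPKM. Endothelial and mural markers summed to 6.31 and 5.88 FPKM. The lymphocyte list was at or under 0.303 FPKM in each library but for Cd79b, a B-cell receptor chain, at 62.8 and 67.1 FPKM. Border-associated macrophage markers summed to 232 and 234 FPKM, most of it from Stab1 (122 and 131 FPKM) and Mrc1 (63.1 and 72.5 FPKM), and Pf4, which is typical of those cells, was at 11.6 and 6.48 FPKM. Neutrophil and monocyte markers summed to 44.2 FPKM in replicate 1 and 13.1 FPKM in replicate 2.

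**Figure D3:**
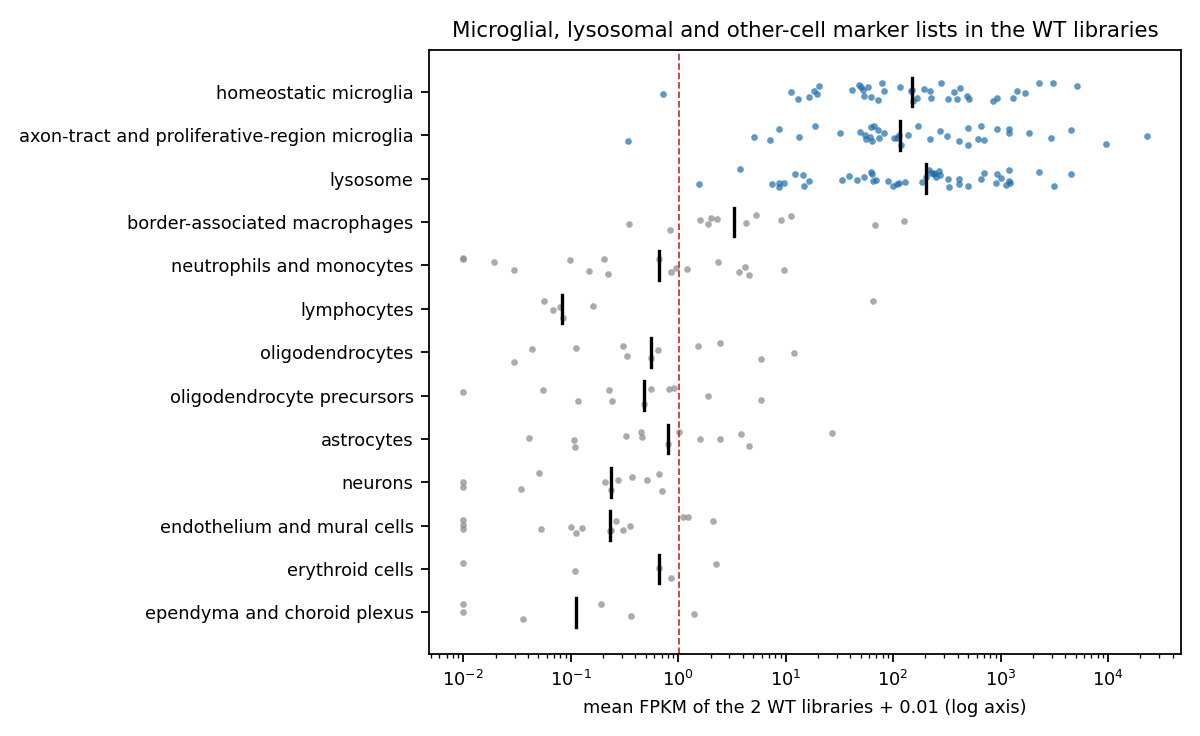
Each point is a gene at its mean FPKM over the 2 WT libraries, with 0.01 added, on a log axis; black bars are list medians, blue marks microglial and lysosomal lists, grey marks lists of other cells, and the dashed line is at 1 FPKM. The 3 blue lists have medians of 151, 117 and 201 FPKM, and the highest grey point is Stab1 at 126 FPKM.

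The 2 libraries were compared gene by gene. Over the 9347 detected genes, Pearson's r of log2(FPKM + 0.1) was 0.94 and Spearman's rho 0.95. These are correlations across genes, which share the libraries and their depth and are not replicates. On this scale the log2 difference between the libraries had a median of 0.02 and an SD of 0.65. Past 2-fold in either direction were 810 genes, which is 8.67% of those detected, 412 of them (4.41%) higher in replicate 1 and 398 (4.26%) higher in replicate 2.

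Higher genes differed less, as seen over the genes with read counts in both libraries. Between 1 and 5 FPKM, 17.5% of 3676 genes were past 2-fold, and between 5 and 20 FPKM 4.05% of 3457. Between 20 and 100 FPKM the share was 0.68% of 1764 genes, and at 100 FPKM or more 0.907% of 441. The median size of the log2 difference fell from 0.44 to 0.11 over these 4 ranges, whereas the SD that counting alone would give fell from 0.16 to 0.02, so the libraries differed by more than counting error at every level. The chi-square of the read counts was 29.9 per degree of freedom, a check only for 1 library deposited under both names. From the same counts edgeR estimated a common dispersion of 0.274, a coefficient of variation of 52.3%. Both values are over 13210 genes of any biotype with at least 20 reads summed over the libraries, not only the detected protein-coding genes. A single value for all levels does not describe the higher genes, whose smaller differences are given above. Of the 100 highest genes 1 was past 2-fold, Cotl1, which encodes an actin-binding protein, at 680 and 333 FPKM.

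Read against these shares, the receptor list had 13 of 156 detected members past 2-fold (8.33%) and the transcription factors 15 of 170 (8.82%), both near the 8.67% of all genes. Of the secreted factors 15 of 102 were past it (14.7%). The median of that list, over all members with a row, was 3.85 FPKM. Between 1 and 5 FPKM 17.5% of all genes were past 2-fold, so its share is not read as an excess. The homeostatic list had 1 of 39 (2.56%), the axon-tract list 0 of 39, the lysosomal list 0 of 49 and the cell cycle list 0 of 44. The first 3 of these lists have median levels of 117 to 201 FPKM, where under 1% of all genes were past 2-fold, and the cell cycle list one of 12.2 FPKM, where 4.05% were, so these low counts are near the shares at their levels. The homeostatic gene past 2-fold was Slc2a5, the fructose transporter of microglia, at 2.58 and 36.4 FPKM, from 139 and 1854 reads. The homeostatic and axon-tract lists leaned in opposite directions by little: 27 of 39 homeostatic genes were higher in replicate 2, with a median log2 difference of -0.14, and 30 of 39 axon-tract genes were higher in replicate 1, with a median of 0.14. Over all detected genes 51.8% were higher in replicate 1. Whether the lists' opposite leanings exceed the spread between wild-type libraries cannot be tested with 2 of them.

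**Figure D4:**
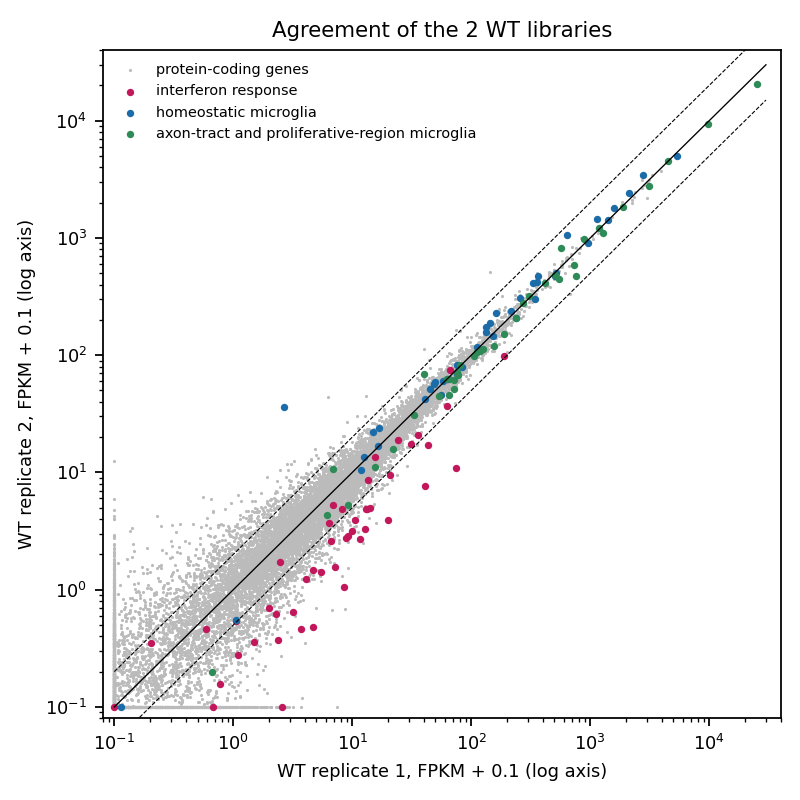
Each point is a protein-coding gene at its FPKM + 0.1 in WT replicate 1 (x) and WT replicate 2 (y), both on log axes; the solid line is equality and the dashed lines are 2-fold. The median size of the log2 difference narrows to 0.11 at 100 FPKM or more, and 38 of the 39 detected interferon response genes lie below the line of equality, with Ccl12 above it.

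The interferon response list differed in level between the libraries. These genes are switched on by type I interferon, and many block viral replication. Of 47 members with a row, 44 were higher in replicate 1, 2 were higher in replicate 2 and 1 was equal, against 6568 higher in replicate 1 and 7173 higher in replicate 2 over all 14823 genes. Of the 39 detected by their mean, 38 were higher in replicate 1, with a median log2 difference of 1.52, and 27 (69.2%) were past 2-fold in that direction, where all genes gave 4.41%. A mean of 1 FPKM can be reached through the higher library alone, as by Usp18 and Irf7. Of the 31 members at 1 FPKM or more in each library, 30 were higher in replicate 1 and 19 (61.3%) were past 2-fold, where 2.70% of the 8766 such genes were. The sum over the list was 823 FPKM in replicate 1 and 398 FPKM in replicate 2. The exception among the detected members was Ccl12, a chemokine, at 66.2 and 74.5 FPKM.

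Between a mean of 5 and 20 FPKM 11 of 15 members were past 2-fold higher in replicate 1, against 2.05% of all genes in that range, and at 20 FPKM or more 3 of 9 were, against 0.272%. Rtp4, a regulator of interferon signalling whose span overlaps another gene, stood at 74.8 and 10.8 FPKM (2527 and 344 reads), and Ifitm3, which blocks viral entry, at 40.8 and 7.58 FPKM (439 and 77 reads). Ifit2, a translation inhibitor of the same family as Ifit3, stood at 20.04 and 3.83 FPKM (1248 and 225 reads). The most abundant member, Bst2, or tetherin, which holds virions at the cell surface, stood at 188 and 98.7 FPKM, a log2 difference of 0.93. Irf7, the amplifying factor of the response, was at 3.09 and 0.548 FPKM, and the deubiquitinase Usp18 at 4.61 and 0.383 FPKM. The gaps of these 6 genes ran from 1.91-fold for Bst2 to 12.04-fold for Usp18, which was under 1 FPKM in replicate 2. Rtp4, Ifitm3 and Ifit2 were picked for their wide gaps in favour of replicate 1. Irf7 and Usp18 were picked with their values in view. The shared direction of these picked genes therefore adds no support to the list difference.

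Some markers of neutrophils and monocytes were also higher in replicate 1. Over the 17 members of that list with a row, 8 were higher in replicate 1, 7 in replicate 2 and 2 were listed at 0 in both, and 4 reached 1 FPKM in each library. Plac8 stood at 15.7 and 3.61 FPKM, S100a8 at 6.54 and 2.50 FPKM, S100a9 at 6.52 and 1.79 FPKM, and Mmp8 at 2.60 and 2.09 FPKM. Elane, neutrophil elastase, at 7.37 FPKM, and Mpo, myeloperoxidase, at 2.38 FPKM in replicate 1 were both listed at 0 in replicate 2. The 7 members higher in replicate 2 were all under 1 FPKM in each library. Among them were Cxcr2 (0.766 and 0.920 FPKM), Ccr2 (0.550 and 0.761 FPKM) and Ltf (0.0366 and 0.348 FPKM). The part of these cells in the interferon difference was not tested. The class I genes B2m, H2-D1 and H2-K1, which interferon also raises, were higher in replicate 1 by 0.47, 0.44 and 0.52 on the log2 scale. Of the 17 detected antigen presentation genes, 12 were higher in replicate 1 and 5 in replicate 2. The class II genes H2-Ab1 and Cd74 were among those higher in replicate 2. Whether interferon had a part in these levels was not tested.

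**Figure D5:**
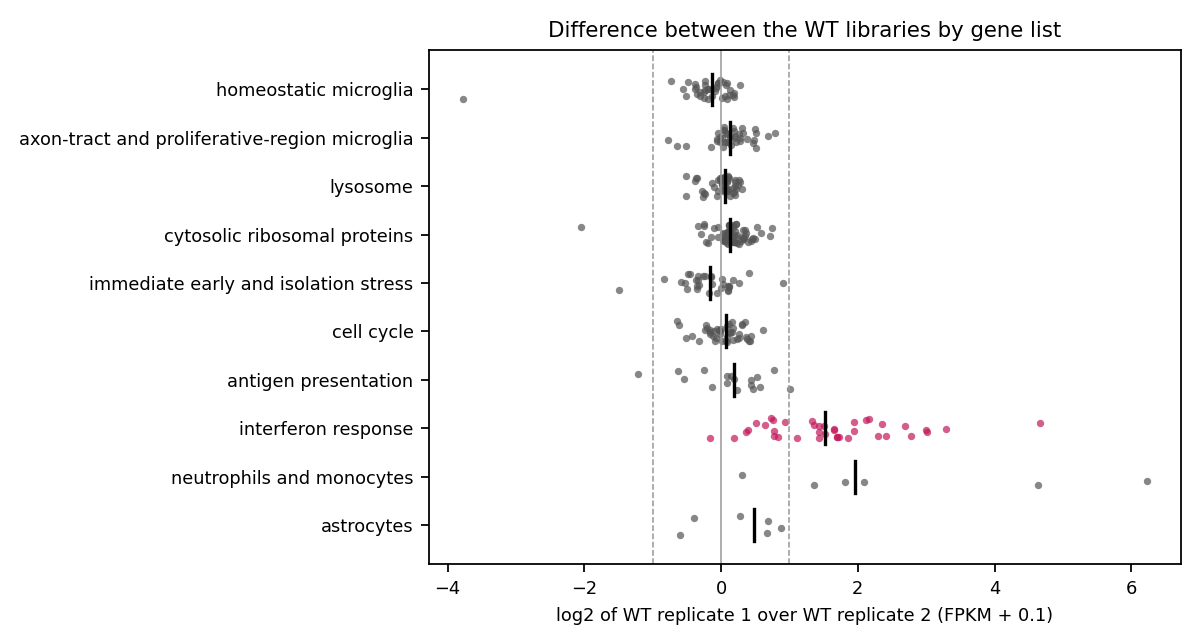
Each point is a gene at 1 FPKM or more, placed by its log2 difference of WT replicate 1 over WT replicate 2; bars are list medians and dashed lines are 2-fold. The interferon response list has its median at 1.52. The neutrophil and monocyte list has a higher one, at 1.95 over 6 genes, among them Elane and Mpo, which were listed at 0 in replicate 2. The astrocyte list has its median at 0.47, while those of the homeostatic, axon-tract, lysosomal and cell cycle lists lie between -0.14 and 0.14.

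The promoters of 3 interferon response genes are printed because the repeat searched above recurs in them. It was present in 20 of the 43 promoters matched to the list (46.5%), against 2.98% of the 32851 in the table, 6.25% of the 32 matched to the homeostatic list and 11.1% of the 36 matched to the axon-tract list. The genes shown are the most abundant member, Bst2 (minus strand, chr8:71537473-71537722), Phf11b (minus strand, chr14:59341331-59341580) and Slfn8 (minus strand, chr11:83020811-83021060, the upstream of its 2 listed promoters, which share the match), from RefSeq on GRCm38.p6. Bst2 holds 2 overlapping matches, beginning 130 and 124 bases before the start. Phf11b holds 1 match that begins 50 bases before it, and Slfn8 1 match on the opposite strand that begins 48 bases before it.
Bst2: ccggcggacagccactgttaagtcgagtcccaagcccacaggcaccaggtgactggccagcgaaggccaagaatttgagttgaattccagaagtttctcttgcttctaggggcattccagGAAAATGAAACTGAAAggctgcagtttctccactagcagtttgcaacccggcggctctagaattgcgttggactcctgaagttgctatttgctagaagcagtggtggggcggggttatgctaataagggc
Phf11b: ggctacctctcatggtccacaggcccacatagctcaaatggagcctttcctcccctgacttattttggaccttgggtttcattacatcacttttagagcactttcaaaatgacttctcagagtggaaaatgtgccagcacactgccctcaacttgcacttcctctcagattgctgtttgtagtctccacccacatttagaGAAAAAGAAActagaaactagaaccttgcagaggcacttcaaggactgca
Slfn8: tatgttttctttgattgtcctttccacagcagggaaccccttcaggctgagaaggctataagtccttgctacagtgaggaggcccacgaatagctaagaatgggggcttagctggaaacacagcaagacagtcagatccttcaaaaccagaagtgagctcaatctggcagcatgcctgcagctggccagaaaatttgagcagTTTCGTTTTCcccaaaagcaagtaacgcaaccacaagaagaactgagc
Phf11b stood at 62.4 and 36.8 FPKM and Slfn8 at 12.6 and 3.18 FPKM, so of the 3 genes shown Slfn8 differed past 2-fold and the others did not. Copies elsewhere cover 73.0% of the Phf11b transcript, which makes its level uncertain.

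Single genes outside these lists also separated the libraries. Capn1, a calcium-activated protease, had 0 reads in replicate 1 and 598 in replicate 2, which is at least 211-fold higher when the 0 is taken as 3 reads in that library, and its span overlaps another gene. Gtse1, a regulator of the cell cycle, stood at 3.13 and 12.5 FPKM, and Tppp, a tubulin-binding protein best known from oligodendrocytes, at 2.95 and 11.7 FPKM. Hmgn2, a chromatin protein with 12 copies elsewhere that cover 92.3% of its transcript, stood at 6.12 and 43.8 FPKM. In the other direction were Ly6i, a surface protein of myeloid cells, at 9.06 and 1.44 FPKM, and Napg, a membrane fusion factor, at 9.15 and 2.43 FPKM. Of the 10 genes with the widest gap in favour of replicate 1, 5 (Rtp4, Ifitm3, Ifit2, Ifi204 and Slfn8) were on the interferon response list. Of all 5662 genes at a mean of 5 FPKM or more, 24 were on that list. These 5 genes were picked by the same ratios that gave the list difference above, so they add no separate support to it.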

How the data were processed

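RNA from 2 wild-type libraries was used. Per the submitters' processing notes, the tools were Bowtie2 2.2.3, TopHat2 2.0.12 and HTSeq 0.6.0 with the build mm9; settings, strand and annotation are not given in the sources used here. Of 14814 protein-coding genes shared with GENCODE M21, 89.8% had its GRCm38 positions, so positions are given as GRCm38. The authors deposited FPKM values per gene in 1 table, and read counts per gene in tables of library pairs, per the file headers. Genes with an FPKM value but no count numbered 639 in replicate 1 and 1247 in replicate 2, at 7.42 FPKM or less. Without strand, reads of overlapping genes cannot be told apart, which concerns 25 of the 169 named genes, among them Spp1, Csf1r, Ctsb, Jun, Capn1 and Rtp4. Copies of at least 95% identity over 100 bases elsewhere in the transcripts were found with BLAST 2.17.0 for 44 of them.

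The FPKM values were used as deposited, at a mean of 1 or more, with a pseudocount of 0.1 on the log2 scale, which understates differences of low genes. Python 3.11.15 with pandas 2.3.3 and scipy 1.17.1 gave the counts, ranks and intervals, edgeR 4.0.16 in R 4.3.3 the dispersion and TMM factors, and DESeq2 1.42.0 the size factors. The dispersion step was tested on simulated data with a single dispersion shared by all genes. The simulated dispersions were all lower than the one estimated here, so that test does not cover the reported value. The comparison of 1 library with 1 library allows no test. Alternatives were other minimums, pseudocounts, scalings, units, class definitions and each library alone.

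The members and gene lists were chosen with earlier results of these data known, and the list of each class is by hand. The rule named the 5 markers, the 30 highest genes, the 15 highest members of the 3 classes, the 5 highest of every other list, and the 10 widest differences per direction at 5 FPKM or more, leaving out predicted genes. Genes named besides these, as examples or relatives, were picked with their values in view.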

Additional observations from a re-analysis of the deposited data

How the results depend on the processing

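A minimum of 5 FPKM in place of 1 left 5662 detected genes. The 10 highest genes took 14.01% of the read counts, which are not divided by length, against 19.4% of the summed FPKM. The count of genes past 2-fold followed the handling of low values: it was 156 with a minimum of 5 FPKM (2.76% of 5662), 2858 with no minimum (20.8% of 13741) and 387 with a pseudocount of 1, against 810. With TMM factors it was 814 and with size factors 816. The correlation across genes was 0.964 with that minimum, 0.951 with none and 0.966 with a pseudocount of 1, against 0.945. With classes taken from Gene Ontology text, 8 of the 15 highest receptors were shared with the list by hand. Of 24 interferon response genes at 5 FPKM or more, 14 were past 2-fold higher in replicate 1 (1.36% of all such genes), and with a pseudocount of 1, 26 of 39 were (1.96%), alternatives chosen after seeing the data. The other 79 alternative values stayed within the limits used to call them alike. Each library alone gave 9276 to 9290 detected genes and 18.8% to 20.1% for the 10 highest. With 2 libraries a single library always lies within 1 SD of their mean, so the list sums are not tested by leaving one out, and the correlation and the counts past 2-fold need both. No paired analysis was possible because the wild-type libraries are 1 group and no result comes from a test. Precision from counting is lowest between 1 and 5 FPKM, with a median of 179 reads and a counting SD of 0.16 on the log2 scale.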

Other observations

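Housekeeping lists held levels that differ widely between genes of 1 complex or pathway. Of the proteins of the mitochondrial genome, mt-Cytb stood at 3064 and 2962 FPKM and mt-Nd1 at 2835 and 2829 FPKM, while mt-Co2, the second subunit of cytochrome oxidase, stood at 4.98 and 4.78 FPKM and mt-Nd3 was listed at 0 in both libraries. Copies of at least 95% identity elsewhere covered the whole mt-Co2 transcript and 99.1% of that of mt-Nd3, but also the whole of mt-Co1, which stood at 2243 and 2098 FPKM. The glycolytic enzyme Gapdh, with copies over 88.0% of its transcript, stood at 13.5 and 11.02 FPKM, and Pkm, with copies over 65.5%, at 579 and 592 FPKM. Of the 79 cytosolic ribosomal proteins, the 71 with over 25% of their transcript in copies ranged from 0.155 to 585 FPKM, with a median of 23.5 FPKM, and the other 8 from 6.43 to 19.2 FPKM. Levels of these genes are therefore uncertain.

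The respiratory chain of the nuclear genome was detected whole, with 59 of 59 members at 1 FPKM or more and sums of 3143 and 2964 FPKM. Its highest member was Sdhd, an anchor of succinate dehydrogenase, at 331 and 329 FPKM, followed by Atp5b, of the ATP synthase, at 294 and 310 FPKM. The lactate-forming enzyme Ldha stood at 418 and 382 FPKM. Ddx3y and Eif2s3y, genes of the Y chromosome, stood at 18 and 16.8 FPKM and at 16.4 and 14.7 FPKM, so RNA of males was present in both libraries.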
